A study of Homo sapiens with 15 samples.

Results

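SNORD22 and SNORD25 to SNORD31 are 8 C/D box small nucleolar RNAs (snoRNAs) that share 1 host gene, SNHG1, on the minus strand of chromosome 11. They were taken by gene name from a table of 50037 genes, and 7 of the 8 had a count in all 15 libraries. SNORD25 was at 0 in every library. The libraries are small RNA sequencing of wild-type HEK-293 cells by their labels (an embryonic kidney line), although the title of the series names macrophages. All cells were incubated for 18 h with a lipoprotein or its products, and no group without either was analysed here. The first group received very low-density lipoprotein (VLDL, titled pcDNA:VLDL, where pcDNA is not explained). The second received the products that lipoprotein lipase (LPL) releases from the lipids of VLDL (LPL:VLDL). The third received the same products with 20 µM GKT136901, a compound that inhibits NOX1 and NOX4, enzymes that make superoxide from NADPH. Each group held 5 libraries, 1 from each of 5 experiments that the labels number 2 to 6, with no statement of whether an experiment was a separate passage of cells, so p-values measure only how these libraries scatter, and that scatter may be technical.

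C/D box snoRNAs are bound by fibrillarin, NOP56, NOP58 and SNU13 and guide the methylation of ribose groups in ribosomal RNA, the guide bases lying just before a D box. In human cells most are cut out of introns: the host is spliced, the intron lariat is opened, and exonucleases trim the ends back to the bound snoRNP. SNHG1 has a 5' terminal oligopyrimidine start like the mRNAs of ribosomal proteins, its spliced exons encode no known protein, and its introns carry the snoRNAs. SNORD25, SNORD27 and SNORD28 are known as guides for the RNA of the small ribosomal subunit, and SNORD26, SNORD29, SNORD30 and SNORD31 as guides for that of the large subunit. SNORD22, the U22 snoRNA, is known for a part in the processing of the small-subunit RNA precursor.

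The 8 sequences are shown because they carry the 2 elements that define the class. They are printed 5′ to 3′ from the GENCODE transcripts of the GRCh38 build, at coordinates given here as in the annotation of the count table, and capitals mark the C box and the D box.
SNORD25: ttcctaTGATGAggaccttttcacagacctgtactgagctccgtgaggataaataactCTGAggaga
SNORD26: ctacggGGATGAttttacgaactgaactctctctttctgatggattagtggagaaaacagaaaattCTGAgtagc
SNORD27: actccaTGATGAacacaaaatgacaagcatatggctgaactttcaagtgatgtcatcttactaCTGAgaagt
SNORD28: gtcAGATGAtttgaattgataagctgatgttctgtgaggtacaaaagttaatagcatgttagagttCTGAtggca
SNORD29: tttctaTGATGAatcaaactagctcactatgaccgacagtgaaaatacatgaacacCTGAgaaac
SNORD30: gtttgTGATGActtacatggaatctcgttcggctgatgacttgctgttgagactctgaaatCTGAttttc
SNORD31: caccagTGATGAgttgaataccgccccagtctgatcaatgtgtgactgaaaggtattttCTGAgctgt
SNORD22: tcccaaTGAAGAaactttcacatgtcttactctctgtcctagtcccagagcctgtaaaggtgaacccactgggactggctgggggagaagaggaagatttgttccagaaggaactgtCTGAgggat
The order is that of the host from its start, and the sequences of SNORD29 and SNORD31 were read from SNHG1 transcripts that retain the intron. The C box was searched as TGATGA with at most 1 difference in the first 10 bases, and the D box as CTGA in the last 15 bases, both on the RNA's own strand. All 8 held both boxes, as did 79.2% of the 288 SNORD transcripts of that annotation. The C box was exact in 5 of the 8 and had 1 difference in SNORD22, SNORD26 and SNORD28, and the D box ended 5 bases before the annotated end in all 8. They were 65 to 75 bases long, apart from SNORD22 with 126 bases. Aligned over their whole length, boxes included, the 21 pairs without SNORD22 were 48.7% to 60.3% identical (median 55.0%), and the 7 pairs with it 39.7% to 44.1%, where the unequal lengths limit the value.

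On GRCh38.p14 the host SNHG1 spans chr11:62851978-62855885 and its exons merge to 10. In the order of the host from its start, SNORD25 lies at chr11:62855565-62855631, SNORD26 at chr11:62855292-62855366, SNORD27 at chr11:62855012-62855083 and SNORD28 at chr11:62854621-62854695. SNORD29 follows at chr11:62853904-62853968, SNORD30 at chr11:62853663-62853732, SNORD31 at chr11:62853326-62853393 and SNORD22 at chr11:62852910-62853035. Each of the 7 with counts lies alone in its intron and touches no other exon. In 6 of these 7 the annotated end is 69 to 75 bases from the next host exon, and in SNORD31 it is 210 bases away. The distance did not follow the level: SNORD26, with the highest level, ends 75 bases before the next exon, and SNORD22, with the lowest, 70 bases.

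SNORD25 could not be read from this table. All of its 67 bases lie in an annotated SNHG1 exon (chr11:62855424-62855885), while other SNHG1 transcripts have exons at chr11:62855424-62855466 and chr11:62855865-62855885 and leave it in an intron. The counting kept no read that lay over exons of 2 genes. All 16 SNORD genes inside an exon of another gene had a total of 0, against 155 of the 378 (41.0%) that touched no such exon. The 0 of SNORD25 therefore says nothing of its abundance. A ninth snoRNA gene of the same host, LOC124900306 at chr11:62854161-62854285, is 65.4% identical to SNORD22 and had 10 counts in 4 libraries.

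**Figure D1:**
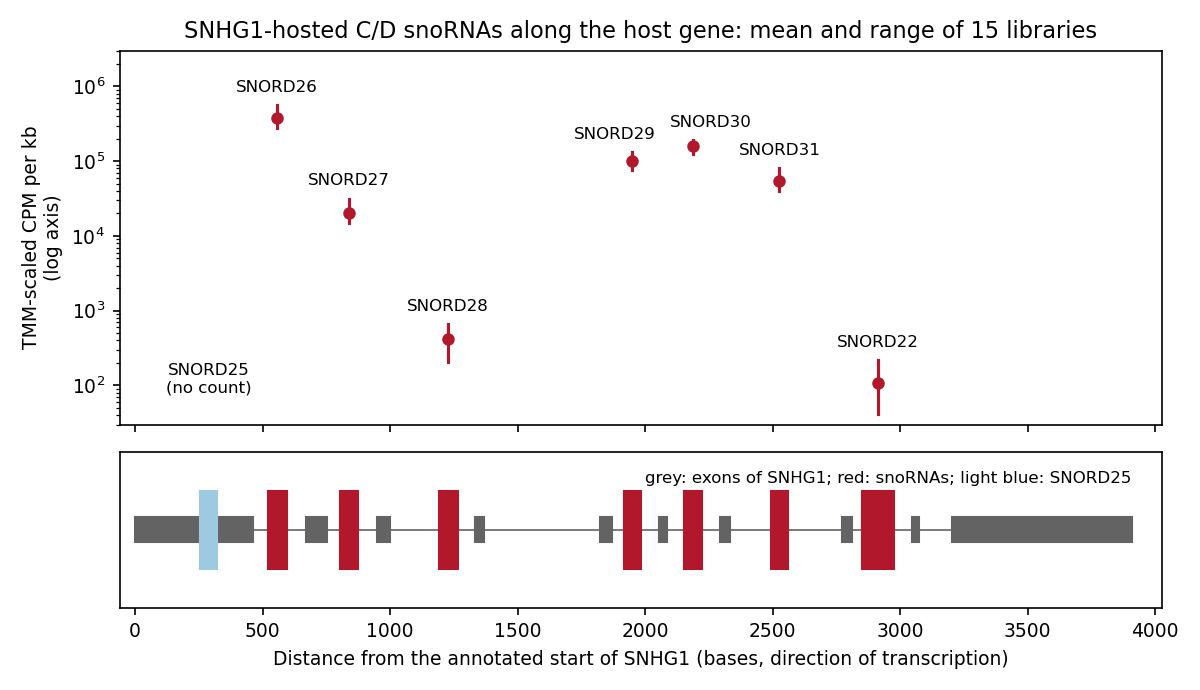
The 7 counted snoRNAs along SNHG1, by distance in bases from the start of the host, with exons as boxes and, on a log axis, the level of each snoRNA as TMM-scaled CPM per kb (point, mean; line, lowest to highest of 15 libraries). SNORD26 is the highest and SNORD22 the lowest, although 6 of the 7 sit 69 to 75 bases before the next exon.

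Total counts ran from 5076917 to 9757123 per library. C/D box snoRNA genes named SNORD took 56.8% of all counts on average, and the SNHG1 snoRNAs took 3.90% to 6.51% of a library (5.10% ± 0.854, SD, n = 15), or 7.89% to 10.3% of its SNORD counts. The label of the cells was checked against marker lists: 17 of 18 myeloid genes had a count (AIF1 was at 0), summing to 27.8 to 126 CPM (counts scaled to a common library total), while 8 of 14 genes of HEK-293 cells were at 0 in every library (NEFM, LHX1, MYCN, LIN28B, KRT8, KRT18, HOXC10 and EPCAM), and the list summed to 0 to 0.803 CPM. Of all 50037 genes, only 21453 had a count, so a gene at 0 was common and says little of the label. Among the myeloid genes, CSF1R (1771 counts over all libraries), ITGB2 (1382), SPP1 (1316) and LAPTM5 (935) had the most. MSR1 (338), FCER1G (188), SPI1 (166), CTSS (160) and TYROBP (125) followed, while CD14 (31), LYZ (30), CD163 (3) and MRC1 (4) had few. The 6 HEK-293 genes with a count had 1 to 6 counts each over all libraries. More of the myeloid genes than of the HEK-293 genes were counted, and at higher sums. The lists were chosen with earlier results of these data known, so they do not settle the label. The cells are called by their treatment alone. Such counts are fragments of mRNA in a small RNA library. The myeloid sum overlapped between groups, at 41.7 to 105 CPM with VLDL, 27.8 to 126 with LPL:VLDL and 29.5 to 81.6 with GKT136901, and its part in the results was not tested.

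The 7 counted snoRNAs of this 1 host differed in level per kb by more than 3 orders of magnitude and kept the same order in every library. SNORD26 averaged 28128 TMM-scaled CPM (CPM after edgeR's trimmed-mean scaling) ± 5161 (SD, n = 15). SNORD30 averaged 11121 ± 1887, SNORD29 6528 ± 978, SNORD31 3651 ± 677 and SNORD27 1457 ± 362 on the same scale. SNORD28 averaged 31.4 ± 9.75 and SNORD22 13.7 ± 5.85.

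To compare genes of unequal length, levels were divided by length. Whether counts rise with length in a small RNA library was not tested, and the division lowers SNORD22, the longest, the most. These levels are counted reads of a small RNA library, not measured amounts of RNA. Whether reads of each snoRNA were recovered alike was not tested, and SNORD22, at 126 bases, is longer than the others, at 65 to 75. Per kb, the order was SNORD26, SNORD30, SNORD29, SNORD31, SNORD27, SNORD28 and SNORD22 in 15 of 15 libraries. The guides of the large subunit held the first 4 places, and the counted guides of the small subunit the next 2. This grouping was made after the values were seen. Guides of other hosts were not sorted this way, so nothing general is read from it. On average SNORD26 stood 2.39 ± 0.381 times above SNORD30, SNORD30 1.59 ± 0.252 times above SNORD29, SNORD29 1.89 ± 0.211 times above SNORD31 and SNORD31 2.72 ± 0.458 times above SNORD27 within a library (SD, n = 15). The largest step was between neighbours SNORD27 and SNORD28, at 51.1 ± 13.2 times, and SNORD28 stood 4.15 ± 1.52 times above SNORD22. Across libraries the ranges of SNORD30 and SNORD29, of SNORD29 and SNORD31, and of SNORD28 and SNORD22 overlapped, so these neighbours were separated only within a library. The other 3 steps separated every library of the upper from every library of the lower snoRNA. SNORD26 exceeded SNORD22 by 3444 times in mean level per kb, and by 1952 to 9641 times in single libraries. SNORD26 ranked sixth and SNORD22 ranked 137 among the 224 SNORD genes with a count.

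**Figure D2:**
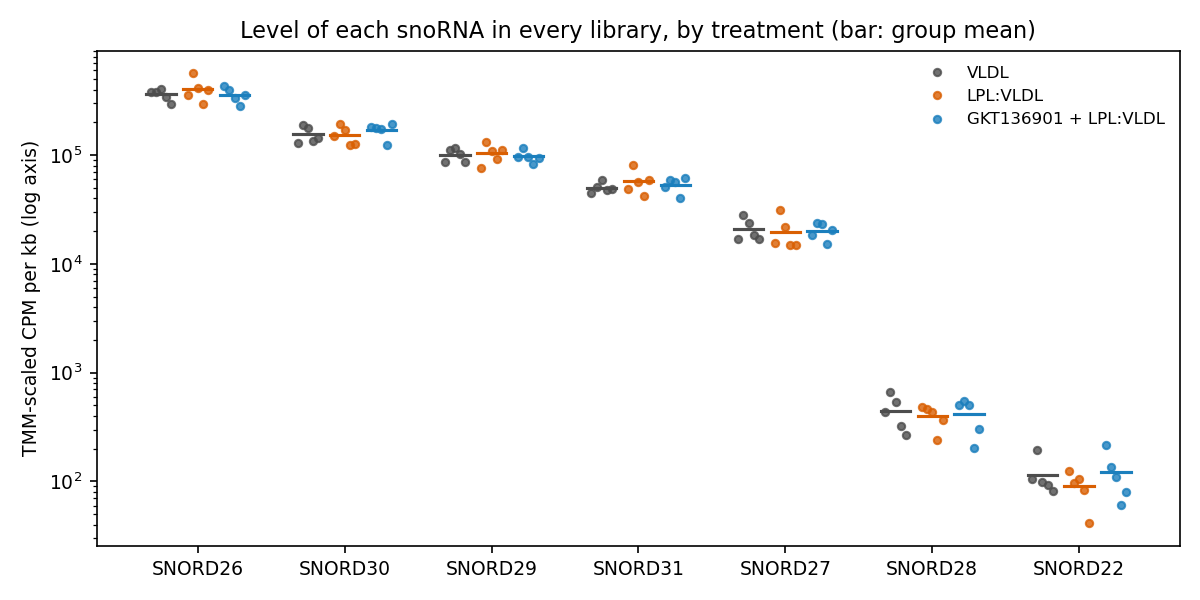
Level of each counted snoRNA in all 15 libraries, as TMM-scaled CPM per kb on a log axis, with libraries marked by treatment and the mean as a bar. The 7 snoRNAs follow the same order in every library, with the widest gap between SNORD27 and SNORD28, and the 3 treatments overlap within each snoRNA.

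Counts for the pair with the lowest levels were still high enough to follow: SNORD22 had 39 to 267 counts per library and SNORD28 135 to 487, against 147458 to 324543 for SNORD26. The host SNHG1 had 7 to 57 counts per library and averaged 2.57 TMM-scaled CPM over 1523 exon bases, in libraries made from short RNA. Those bases include the exon that holds SNORD25, so the counts do not tell spliced from unspliced RNA.

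The first comparison asked whether the LPL products of VLDL changed the snoRNAs relative to VLDL itself. None of the 7 passed the test. With VLDL, SNORD26 stood at 28425, 28545, 30374, 25589 and 22305 TMM-scaled CPM in experiments 2 to 6. With LPL:VLDL it stood at 26664, 42339, 30666, 22238 and 29899. The groups overlapped. On this scale LPL:VLDL was higher in 3 of 5 experiments, with 1 library, that of experiment 3, above all others. That library had the lowest TMM factor, 0.766. In CPM of the library total it stood at 32429, below the LPL:VLDL library of experiment 2 at 35691. The log2 difference was 0.17 (95% interval -0.20 to 0.53, edgeR adjusted p = 0.999), which allows a fold between 0.873 and 1.44. SNORD31 gave the largest positive difference, 0.19 (-0.19 to 0.57), and SNORD22 the largest negative one, -0.34 (-1.05 to 0.38), or a fold between 0.483 and 1.30 (0.567 to 1.08 with the experiment as a block). SNORD22 is also the least counted, and its interval was the widest. Each of these differences rested largely on 1 library of experiment 3. Without the LPL:VLDL library of that experiment SNORD26 stood at 0.0054 and SNORD31 at 0.03, and without its VLDL library SNORD22 stood at -0.06.

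By edgeR's quasi-likelihood test 0 of the 7 were called in this comparison (adjusted p under 0.05), where the background over all 4099 genes tested was 0%. The same count of 0 members came when experiment was added as a block, where the background was 0.0244%, 1 gene, and from DESeq2 and limma voom. At an unadjusted p under 0.05, 0 of the 7 and 77 of the 4099 genes passed, or 172 of the 4099 with the block. The median difference of the 7 was -0.02, beside 0.0096 for all genes tested, and 3 were above 0 and 4 below. Under library totals the median of all genes stood at -0.11 on the log2 scale and that of the 7 at -0.15, with SNORD26 at -0.0021 and SNORD29 at -0.12. No snoRNA moved the same way in all 5 experiments, which 3.44% of all genes did upward and 3.46% downward. No member had groups that did not overlap, as 0.561% of all genes did.

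The second comparison set GKT136901 with the LPL products against the products alone. No group analysed here received GKT136901 without the products. An altered response to the products thus cannot be told apart from an effect of the compound itself. Again 0 of the 7 were called by edgeR, with or without the block, against a background of 0%, and 0 of the 7 and 87 of the 4099 genes had an unadjusted p under 0.05 (151 with the block); DESeq2 and limma voom also called 0 of the 7. With LPL:VLDL, SNORD30 stood at 10504, 13380, 11899, 8608 and 8877 TMM-scaled CPM in experiments 2 to 6. With GKT136901 it stood at 12653, 12394, 12212, 8621 and 13561. It was higher with the inhibitor in 4 of 5 experiments, by far the most in experiment 6, while the groups overlapped. The log2 difference was 0.16 (95% interval -0.21 to 0.53, edgeR adjusted p = 1.00), a fold between 0.865 and 1.44. SNORD26 was lower with the inhibitor in 4 of 5 experiments, and its log2 difference was -0.17 (-0.53 to 0.19). Without the LPL:VLDL library of experiment 3 that difference was -0.02. SNORD22 had the largest value, 0.41 (-0.30 to 1.13), a fold between 0.811 and 2.19 (0.938 to 1.79 with the block), which was 0.10 without the GKT136901 library of experiment 2. The median of the 7 was 0.04, beside -0.02 for all genes. With summed SNORD counts as the library size the median of all genes stood at 0.091, and that of the 7 at 0.15. Between-group overlap held for all 7, against 0.488% of all genes without overlap, and none moved one way in 5 of 5 experiments (3.2% of all genes upward, 3.32% downward).

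GKT136901 with LPL:VLDL against VLDL alone completed the set. By edgeR, 0 of the 7 were called with or without the block, beside a background of 0%, and 0 of the 7 and 91 of the 4099 genes had an unadjusted p under 0.05 (177 with the block); DESeq2 and limma voom called 0 of the 7. The differences were small, from -0.10 for SNORD28 (95% interval -0.72 to 0.51) to 0.14 for SNORD30 (-0.23 to 0.50). SNORD26 averaged 26974 ± 4247 TMM-scaled CPM with the inhibitor and 27047 ± 3155 with VLDL (SD, n = 5 each), with a log2 difference of -0.0039. Its interval allowed a fold between 0.776 and 1.28. The median of the 7 was -0.0039, beside -0.0040 for all genes. None moved one way in 5 of 5 experiments (3.66% of all genes upward, 3.73% downward), and all groups overlapped (0.512% of all genes did not). The 3 comparisons share their groups and are not independent of each other. With the experiment as a block the intervals were narrower, and they give the range of changes compatible with the values at 5 libraries a group. For SNORD26 they were folds of 0.942 to 1.30, 0.765 to 1.05 and 0.845 to 1.16 in the order of the 3 comparisons.

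**Figure D3:**
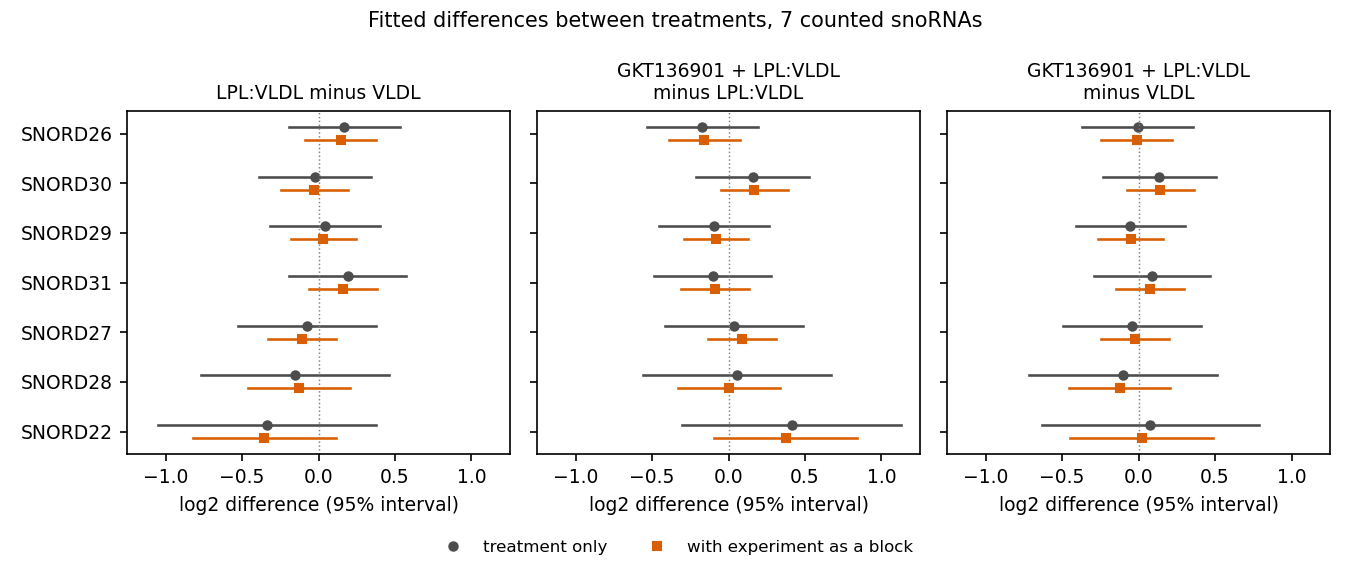
Fitted log2 differences of the 7 counted snoRNAs in the 3 comparisons, with 95% intervals, from the fit of treatment alone and from the fit that adds experiment as a block. Every interval crosses 0, intervals with the block are narrower, and SNORD22 has the widest.

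SNORD27, SNORD28, SNORD22, SNORD31 and SNORD30 differed between experiments. A test of experiments 2 to 6 in a model of treatment and experiment (edgeR, 4 coefficients) called 5 of the 7, with a background of 11.1% of all genes. Power depends on count, and of the 437 genes with a mean count of at least 100, to which all 7 belong, 62.5% were called, as were 42.8% of the 166 SNORD genes tested. With 5 of 7, the SNHG1 snoRNAs were near the share of genes with such counts, and the count says nothing particular to them. The adjusted p was 0.000236 for SNORD27, 0.000911 for SNORD28, 0.0167 for SNORD22, 0.0425 for SNORD31 and 0.0477 for SNORD30 by edgeR. SNORD29 (edgeR adjusted p = 0.0890) and SNORD26 (0.106) did not pass. Only SNORD27 and SNORD28 passed in every alternative tried, and the 5 became 3 with DESeq2 size factors, 2 without experiment 2, and 3 without experiment 4 or without experiment 5. The snoRNAs of other hosts gave 4 of 10 for GAS5 and 2 of 4 for RPL13A. What the experiments differed in is not given in the labels.

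SNORD28 showed the pattern most plainly. In VLDL, LPL:VLDL and GKT136901 libraries it stood at 49.4, 34.8 and 41.3 TMM-scaled CPM in experiment 3, and at 40.3, 32.6 and 37.8 in experiment 4. In experiment 5 it stood at 24.3, 18.0 and 15.4, and in experiment 6 at 19.9, 27.7 and 22.8. Experiment 2 gave 32.3, 36.3 and 37.9. Every library of experiments 5 and 6 was below every library of experiments 2 to 4, a pattern chosen after the values were seen. SNORD22 did the same on this scale, which 0.951% of all genes did, but not in CPM of the library total, where it had 9.41 in LPL:VLDL of experiment 3 and 11.2 in VLDL of experiment 5. Most of all genes had fewer counts than these snoRNAs, and the share among genes with such counts was not taken. Nothing particular to the SNHG1 snoRNAs is read from this pattern.

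SNORD27, a guide of the small subunit, stood at 2015, 2272 and 1712 TMM-scaled CPM in experiment 3 (VLDL, LPL:VLDL, GKT136901) and at 1333, 1067 and 1098 in experiment 5. The ratio of the highest to the lowest experiment mean was 1.71 for SNORD27, 2.18 for SNORD28 and 2.22 for SNORD22, and ran from 1.39 to 1.47 for SNORD26, SNORD29, SNORD30 and SNORD31. SNORD22 and SNORD28 had the highest ratios of the 7 under all 3 scalings looked at (TMM, library totals and summed SNORD counts), as values without a test, while SNORD27 (1.61) was below SNORD26 (1.65) under library totals. Experiment 5 was the lowest for 5 of the 7 under TMM scaling and under library totals, and for 4 under scaling to the summed SNORD counts. The highest was experiment 3 for 6 of the 7 under TMM scaling, but experiment 2 for 5 under library totals and for 4 under the SNORD scaling. The TMM factors of experiment 2 were 1.16 to 1.34, those of all other libraries 0.766 to 1.03.

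Experiment means held 52.2% (SNORD26) to 83.9% (SNORD28) of the variance of the log2 levels, and treatment means 1.41% (SNORD28) to 8.71% (SNORD22). The median over the 7 was 62.1% for experiments, beside 70.8% for the 437 genes with a mean count of at least 100, and 7.37% for treatments, beside 4.80%. With 5 experiments and 3 treatments, experiment means take up more variance than treatment means in a gene that follows neither.

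**Figure D4:**
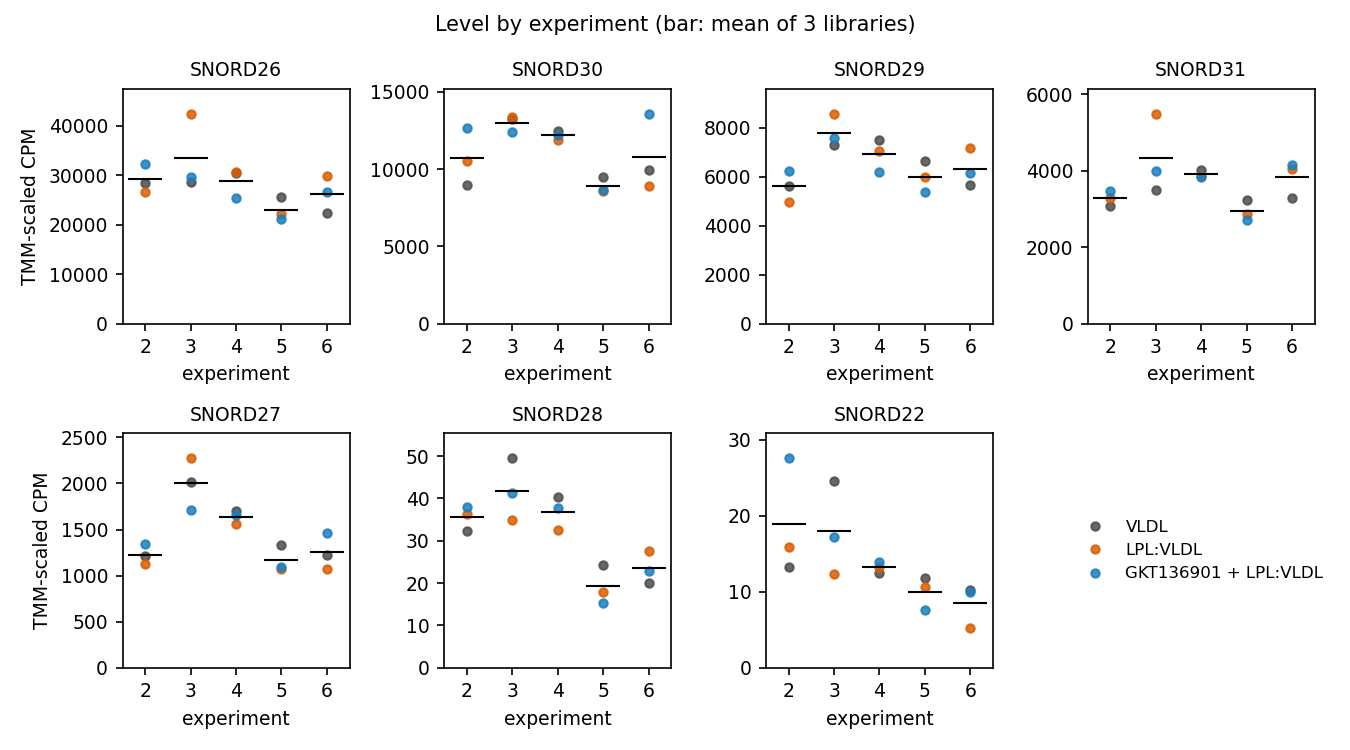
TMM-scaled CPM of each counted snoRNA by experiment (2 to 6), 1 panel each with its own axis from 0, with libraries coloured by treatment and the mean of the 3 libraries as a bar. Experiment 5 is lowest for 5 of the 7 and experiment 3 highest for 6 of the 7 on this scale, while under library totals experiment 2 is highest for 5.

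Shares within the host do not depend on library scaling. SNORD26 made up 55.1% ± 2.80 of the summed counts of the set (SD, n = 15), SNORD30 21.9% ± 2.37, SNORD29 12.9% ± 1.20, SNORD31 7.16% ± 0.555 and SNORD27 2.84% ± 0.402. SNORD28 held 0.0611% and SNORD22 0.0269%. Of 21 pairs of snoRNA and comparison, 2 had a difference in the same direction in 5 of 5 experiments. Taken the same way within their own hosts, 4 of 30 pairs did for the GAS5 snoRNAs and 1 of 12 for those of RPL13A, and nothing particular to SNHG1 is read from the count of 2. The share of SNORD27 was 2.62% ± 0.404 with LPL:VLDL and 3.01% ± 0.414 with VLDL (SD, n = 5 each), and was lower in every experiment by a median difference of -0.264 percentage points (-0.778 to -0.164). The share of SNORD30 was 23.6% ± 1.77 with GKT136901 and 20.2% ± 2.18 with LPL:VLDL, higher in every experiment by a median of 3.18 points (0.0028 to 8.76). The smallest of these was that of experiment 2, and both were picked out after the values were seen and were not tested. Shares of 1 total are not independent, since 1 can be higher only where another is lower.

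**Figure D5:**
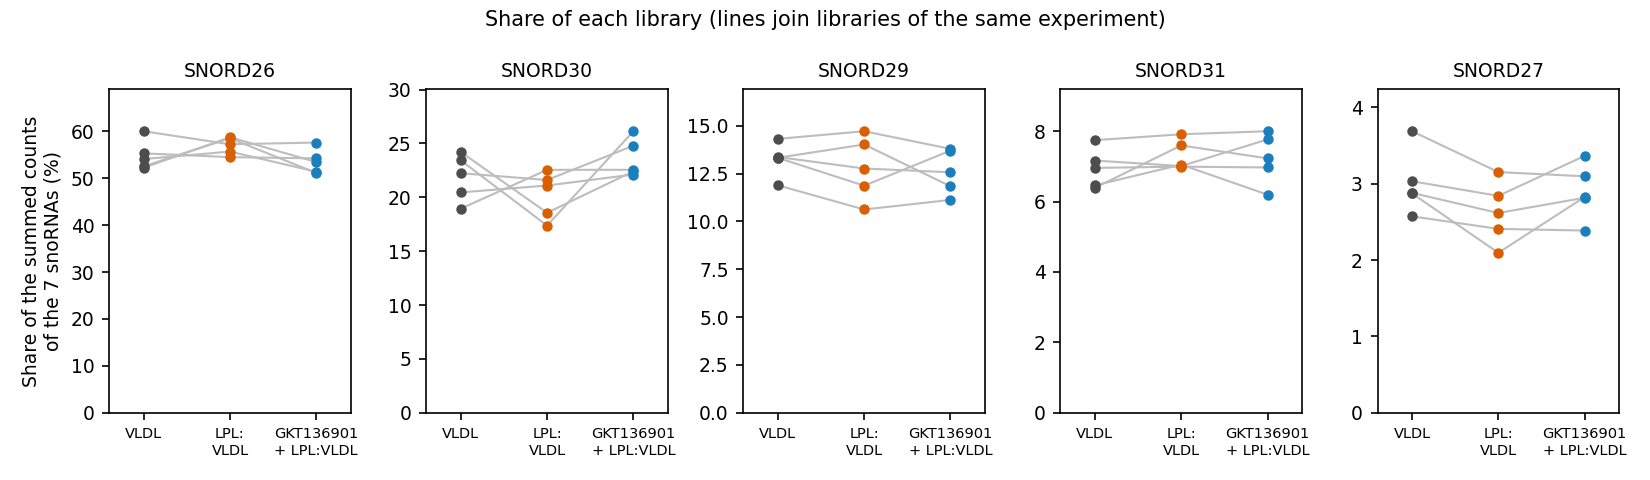
Share of the 5 snoRNAs with the most counts in the summed counts of the SNHG1 set, in percent, by treatment, with a line for each experiment. SNORD30 is higher with GKT136901 than with LPL:VLDL in 5 of 5 experiments, and SNORD27 lower with LPL:VLDL than with VLDL in 5 of 5.

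Across the 15 libraries the levels of these snoRNAs were correlated to differing degrees. Pearson's r of log2 levels over 21 pairs ran from 0.028 (SNORD22 with SNORD31) to 0.84 (SNORD27 with SNORD30), with a median of 0.66, beside 0.57 for 9316 pairs among 137 SNORD genes. After experiment means were removed the median was 0.31, below the 0.50 of SNORD pairs, and 18 of 21 were above 0. With summed SNORD counts as the library size it was 0.55, above the 0.18 of SNORD pairs. These are descriptions: the libraries share experiments and scaling, and whether the SNHG1 snoRNAs are more alike than other SNORD genes turned on the scale used. By their mean profile under TMM scaling, the genes most like the set were SNORD105 (r = 0.92), SNORD4A (0.91), SNORD47 (0.91), SNORD96A (0.91) and RNR1, the mitochondrial small ribosomal RNA (0.91). The least alike were MIR224 (-0.84), MIR6842 (-0.80) and MIR326 (-0.80). These names turned on the scale: of the first 5, SNORD4A was among the 5 most alike after experiment means were removed (0.84), and SNORD4A (0.88) and RNR1 (0.89) with summed SNORD counts as the library size, and none of the 3 least alike was the same. The host SNHG1, on its few counts, had r = -0.35 under TMM scaling, -0.22 after experiment means were removed and 0.17 with summed SNORD counts.

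Genes that make or handle these snoRNAs were thinly counted, as mRNA fragments. Of the 4 core proteins of the C/D snoRNP, only NOP58 had enough counts to test, and FBL, the methyltransferase, had 0. None of the 9 assembly factors could be tested. Among 5 genes of debranching and trimming, DIS3 and MTREX were tested, and among 6 of nonsense-mediated decay, UPF1, UPF2 and SMG1. Of the 8 other snoRNA hosts with an oligopyrimidine start, 5 were tested (SNHG5, SNHG29, ZFAS1, SNHG8 and SNHG12). By edgeR 0 of these genes passed in any treatment comparison or between experiments, and neither did SNHG1 or its neighbours SLC3A2 and WDR74. NOP58, with 117 counts in all, averaged 0.339 TMM-scaled CPM with LPL:VLDL and 1.52 with VLDL, a log2 difference of -2.07 (SE 0.942, edgeR adjusted p = 0.999). It was lower in 5 of 5 experiments, as 3.46% of all genes were. Its edgeR p before adjustment was under 0.05, as was that of 77 of the 4099 genes. Its groups overlapped (SD 0.418 with LPL:VLDL and 0.561 with VLDL), and at so few counts no change is read from it. DIS3, an exosome nuclease, was also lower in 5 of 5 there, with overlapping groups and a log2 difference of -0.96 (-2.07 to 0.15). The 10 snoRNAs of GAS5 and the 4 of RPL13A also had 0 called in each treatment comparison.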

How the data were processed

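Small RNA was sequenced from 15 libraries in 3 treatment groups of 5. Per the file headers, the deposited counts are raw read counts per gene made by featureCounts 2.0.6 over RefSeq exons of GRCh38.p14, with no option for strand, for reads mapped to several places or for reads over several genes, so both of these kinds of read were left out and strands are not told apart. The Length column of the same deposited table, another unit, holds exon bases per the file headers. The submitters' processing notes name fastp 0.24.0, STAR 2.7.11b, hg38, R 4.4.2, edgeR 4.4.2 and DESeq2 1.46, without a role.

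The members and gene lists were chosen with earlier results of these data known. All genes were fitted together: edgeR 4.0.16 (R 4.3.3) filterByExpr (minimum count 10, minimum total 15) kept 4099 genes with 99.664% of counts, libraries were scaled by TMM, and a two-sided quasi-likelihood F test was run on the 3 groups (12 residual degrees of freedom), with Benjamini-Hochberg adjustment over 4099 genes. Genes named are the 8 members, the host, its neighbours, the listed pathway genes, and the 5 genes most like and 3 least like the members' mean log2 profile among genes with a mean count of at least 100. Scripts were tested on simulated data.

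Per the labels, replicates 1 to 5 are experiments 2 to 6, which pairs the libraries. Over 437 genes, r between deviations from the group mean was 0.33 to 0.88 (median 0.68) in 15 same-experiment pairs. In the 60 others it was -0.61 to 0.78 (median -0.28), so the ranges overlapped. The deviations of a group add up to 0, so higher values in same-experiment pairs lower those in the others. A fit with an experiment block (8 residual df), other scalings and filters, DESeq2 1.42.0, limma voom 3.58.1 and leaving out libraries were alternatives. Libraries within a group differed more than counting noise gives (chi-square over its degrees of freedom, 12.1 to 308). This excess is no measure of their quality, and all 15 were kept. Total counts were 5076917 to 9757123 per library.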

Additional observations from a re-analysis of the deposited data

Results flagged for a closer look

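In 21 groups of 5 libraries (7 snoRNAs in 3 treatments), 2 single libraries stood apart by a gap over 0.710 of their group's range, where chance gives about 1 in 20 groups. SNORD22 reached 24.6 TMM-scaled CPM with VLDL in experiment 3, while the other 4 VLDL libraries had 10.2 to 13.2. SNORD30 stood at 8621 TMM-scaled CPM with GKT136901 in experiment 5, while the other 4 libraries of that group had 12212 to 13561.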

How the results depend on the processing

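In all 3 treatment comparisons 0 snoRNAs of the set were called under every alternative run: other scalings, other filters, DESeq2, limma voom, the experiment block, and leaving out each library or experiment. Over all genes, LPL:VLDL against VLDL gave 1 call with the replicate block and 0 to 2 when a library or experiment was left out. Between experiments the 5 calls became 3 with DESeq2 size factors and 2 to 4 without 1 experiment, and the 454 calls over all genes became 145 to 459, the 145 without experiment 2. The cause was not tested. The median r of member pairs was 0.31 after experiment means were removed. Several of the small log2 differences between treatments changed sign, none of them called. For LPL:VLDL against VLDL, library totals gave -0.0021 for SNORD26 and -0.12 for SNORD29, SNORD scaling -0.087 for SNORD29, and the stricter filter -0.048 for SNORD29. For GKT136901 against LPL:VLDL, library totals gave 0.032 for SNORD29 and 0.014 for SNORD31, SNORD scaling 0.057 and 0.052 for the same pair, and limma voom -0.0071 for SNORD28. For GKT136901 against VLDL, SNORD scaling gave 0.0074 for SNORD26. Leaving out libraries or experiments moved LPL:VLDL against VLDL from -0.32 to 0.053 for SNORD27, -0.32 to 0.028 for SNORD28, -0.069 to 0.13 for SNORD29 and -0.13 to 0.058 for SNORD30. It moved GKT136901 against LPL:VLDL from -0.066 to 0.26 for SNORD27, -0.092 to 0.22 for SNORD28, -0.19 to 0.00094 for SNORD29 and -0.21 to 0.047 for SNORD31. It moved GKT136901 against VLDL from -0.28 to 0.34 for SNORD22, -0.096 to 0.067 for SNORD26, -0.14 to 0.077 for SNORD27, -0.27 to 0.072 for SNORD28 and -0.14 to 0.016 for SNORD29. Depth limits SNORD22 most, at 39 to 267 counts a library. The replicate block changed no call of a member.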
